A study of Mus musculus with 3 samples.

Results

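The vascular and haemangioblast regulators described here are 10 genes, Kdr, Flt1, Flt4, Vegfa, Etv2, Tal1, Lmo2, Fli1, Cdh5 and Pecam1, each found once by its symbol among the 31054 features of the count tables. They were measured by single-cell RNA-seq in 3 wild-type mouse embryos of a C57BL/6 x 129 SvEv background at embryonic day 8, which the study took at 0 to 1 somite (one label field allows up to 2) and genotyped as male. The study removed extraembryonic tissue for genotyping, but 11.3% ± 5.60 of the cells kept here still fell in the extraembryonic-endoderm-like gate described below. Each embryo was dissociated on its own and gave 1 library of unique molecular identifiers (UMIs, which count each captured transcript once). No treated or mutant group was included. The embryos are the replicates, 3 animals of 1 genotype. A value with ± gives the SD over embryos. An SE belongs to a log2 difference fitted to the sums of all gates or classes, and was derived from its test statistic.

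Blood vessels and the first blood cells arise from mesoderm that carries KDR (VEGFR2), the main signalling receptor for the growth factor VEGFA. The ETS factor ETV2 switches on the endothelial and blood programme in such cells for a short time, TAL1 and LMO2 act together in a transcription factor complex in blood and endothelial progenitors, and the ETS factor FLI1 carries the programme on. FLT1 (VEGFR1) binds VEGFA and can act as a decoy, FLT4 (VEGFR3) is the receptor for VEGFC, and CDH5 (VE-cadherin) and PECAM1 (CD31) are junction proteins of endothelial cells.

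After quality control 5795, 7956 and 7844 cells remained in embryos 1, 2 and 3, with a median of 27635, 14615 and 16332.5 UMIs per cell. Cells were placed in 14 lineage gates by UMIs of other genes, and none of the 10 genes served as a gate marker. A gate is a range of marker levels and is written as "X-like". The gates took in 17335 of 21595 cells (80.3%). The endothelium-like gate asked for at least 4 of 12 markers (such as Egfl7, Esam, Cldn5 and Tie1) and a summed level of 5 marker UMIs per 10000, and held 190, 229 and 399 cells. Of the 818 cells, 48 lay within 20% of that level, and 47 cells lay as close on the outer side. Their median summed level was 17.4 endothelial marker UMIs per 10000, and that of each of the other 13 marker lists in the same cells was between 0 and 0.817. Embryo 1 held no erythroid-like cells against 756 and 186 in embryos 2 and 3, so erythroid-like values rest on 2 embryos. The libraries shared between 18 and 22 cell barcodes pairwise.

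The genes lie at separate loci of the GENCODE M21 annotation (GRCm38), each as a protein-coding gene. Kdr spans chr5:75932827-75978458 and Flt1 chr5:147561604-147726011, both on the minus strand, Flt4 chr11:49609263-49652739 on the plus strand and Vegfa chr17:46016993-46032369 on the minus strand. Of the transcription factors, Etv2 is the shortest locus at chr7:30633616-30635852 (minus strand), and Tal1 lies at chr4:115056426-115071755 (plus), Lmo2 at chr2:103957986-103981878 (plus) and Fli1 at chr9:32422204-32542861 (minus). Cdh5 is at chr8:104101625-104144511 (plus) and Pecam1 at chr11:106654217-106750628 (minus). Lmo2, Fli1 and Cdh5 overlap a gene on the opposite strand (4931422A03Rik, Gm27201 and Gm29682).

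ETS proteins such as ETV2 and FLI1 bind sites with a GGAA core, so the 250 bases before the start site of Kdr, Flt1 and Etv2 are shown, read 5′ to 3′ on the coding (minus) strand from RefSeq (GRCm38.p6). Capitals mark the letters CCGGAA or AGGAAG on either strand (TTCCGG is CCGGAA on the other strand).
Kdr, chr5:75978456-75978705: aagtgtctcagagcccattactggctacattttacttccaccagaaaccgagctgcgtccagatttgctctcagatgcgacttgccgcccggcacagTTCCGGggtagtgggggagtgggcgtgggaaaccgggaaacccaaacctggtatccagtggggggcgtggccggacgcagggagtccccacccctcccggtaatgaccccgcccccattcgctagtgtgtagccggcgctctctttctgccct
Flt1, chr5:147726012-147726261: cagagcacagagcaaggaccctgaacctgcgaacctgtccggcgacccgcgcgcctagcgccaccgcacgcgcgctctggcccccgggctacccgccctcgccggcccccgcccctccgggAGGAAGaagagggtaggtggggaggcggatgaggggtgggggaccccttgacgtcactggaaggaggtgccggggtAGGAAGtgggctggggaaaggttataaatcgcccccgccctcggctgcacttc
Etv2, chr7:30635853-30636102: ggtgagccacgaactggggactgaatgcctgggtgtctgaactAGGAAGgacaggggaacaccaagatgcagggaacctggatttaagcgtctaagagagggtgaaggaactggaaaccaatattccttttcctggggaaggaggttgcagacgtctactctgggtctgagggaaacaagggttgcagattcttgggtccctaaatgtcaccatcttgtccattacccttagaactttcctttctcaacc
The Kdr window held 1 CCGGAA match, which starts 153 bases before the start site, the Flt1 window 2 AGGAAG matches and the Etv2 window 1. Among 32851 promoter windows of the same length, 12.03% held CCGGAA and 29.5% held AGGAAG, so matches of this kind are common and describe the letters alone. Also searched on both strands were the E-box CANNTG (66.2% of windows), the GATA letters AGATAA (9.99%) and the hypoxia response core ACGTG (16.6%); of the 3 windows printed, the E-box was in that of Kdr and the other 2 motifs were in none. RefSeq windows were matched for 6 of the 10 genes. Those of Flt4, Tal1 and Vegfa held 0 matches to CCGGAA or AGGAAG, so the 3 windows printed are the ones with such a match.

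The first comparison asked how the genes divide between the endothelium-like cells and the rest of the embryo. Of the 10, 9 were higher in endothelium-like cells and Vegfa was lower, where 46.3% of the 14196 genes tested were called in either direction (24.3% higher and 22.0% lower) by edgeR's quasi-likelihood test on UMIs summed per embryo and gate. All 10 passed the filter on low counts. Levels are a gene's UMIs scaled to 1000000 UMIs of a sum (CPM), so less RNA per cell and fewer expressing cells cannot be told apart from the level alone.

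Among the receptors, Kdr stood at 616.8, 480.6 and 479.2 CPM in the endothelium-like cells of embryos 1, 2 and 3, and Flt1 at 294.8, 227.7 and 229.8. Flt4 stood at 75.4, 63.8 and 54.2 CPM. For all 3 receptors the endothelium-like sums were above those of every other gate in every embryo, with embryo 1 highest. The log2 difference from the mean of the other gates was 5.73 for Kdr (SE 0.11, edgeR adjusted p = 1.20e-31), 5.43 for Flt1 (SE 0.14, 1.21e-27) and 6.10 for Flt4 (SE 0.16, 1.21e-27).

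The transcription factors rose alongside. Etv2 had 532.7, 353.9 and 351.0 CPM, Tal1 231.9, 178.9 and 181.7, Lmo2 481.5, 437.9 and 435.2 and Fli1 300.8, 259.3 and 264.7. Again embryo 1 was the highest for each. The log2 differences were 4.55 for Etv2 (SE 0.16, edgeR adjusted p = 9.38e-24), 5.59 for Tal1 (SE 0.16), 4.88 for Lmo2 (SE 0.10) and 6.57 for Fli1 (SE 0.14), and the largest adjusted p of these 4 was that of Etv2.

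The junction genes put the embryos in another order. Cdh5 had 47.7, 124.1 and 83.6 CPM and Pecam1 60.7, 83.7 and 70.2, so embryo 1 was the lowest for both and embryo 2 the highest. Cdh5 had the largest log2 difference of the 10 genes at 8.13 (SE 0.23, edgeR adjusted p = 7.78e-26), and Pecam1 differed by 5.53 (SE 0.14). In the other gates the mean Cdh5 level was at most 1.33 CPM (erythroid-like). The size of its difference, and so its rank, rests on few UMIs there. Over the 10 genes the median log2 difference was 5.56, against -0.04 over all genes tested.

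**Figure D1:**
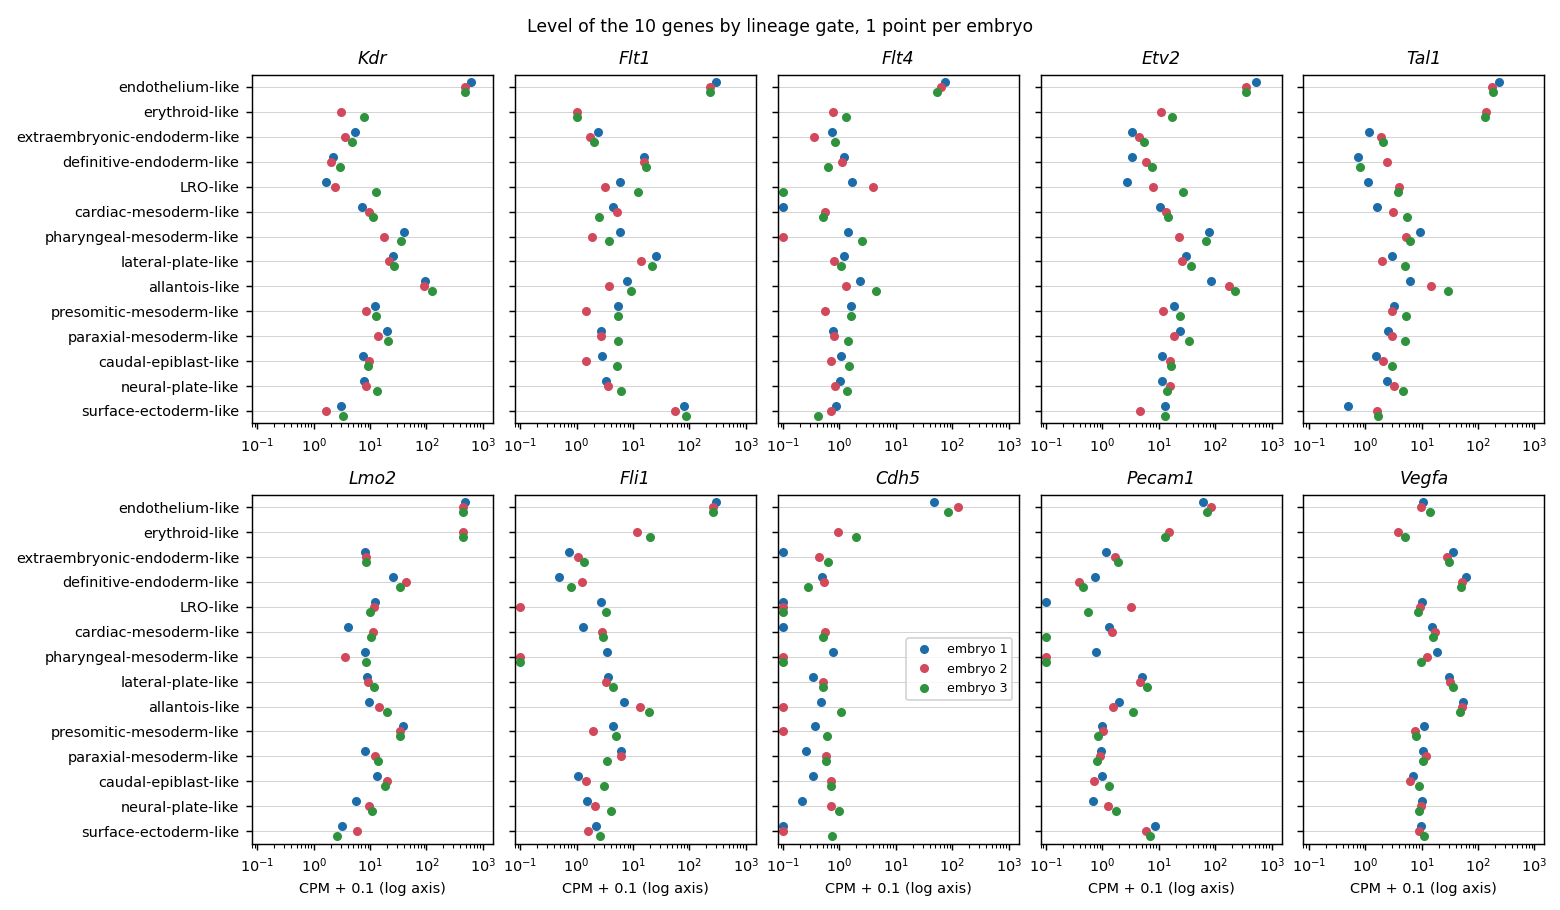
Level of each of the 10 genes in 14 lineage gates, as CPM + 0.1 on a log axis, with 1 point per embryo (erythroid-like has no point for embryo 1). The endothelium-like sums of 8 genes lie above all other gates, Lmo2 is as high in erythroid-like cells, and Vegfa peaks in definitive-endoderm-like and allantois-like cells.

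Detection per cell was read after each cell was thinned to 5000 UMIs, which left out 112 shallower cells, and the share before thinning is given in brackets. Kdr was found in 89.8% ± 6.08 (SD, n = 3) of endothelium-like cells (98.7%), Lmo2 in 86.4% (98.1%), Etv2 in 71.2% (91.1%), Fli1 in 69.3% (93.4%), Flt1 in 66.2% (92.7%) and Tal1 in 62.9% (92.5%). Flt4, Cdh5 and Pecam1 were found in 28.4%, 28.2% and 27.5% (62.8%, 53.1% and 60.9%). As a background, extraembryonic-endoderm-like cells, which should lack these genes, had shares between 0.1% for Cdh5 and 3.4% for Lmo2 at median depths of 16065 to 28198 UMIs by embryo, against 13913 to 25798.5 in endothelium-like cells. Of the 9 genes without Vegfa, an endothelium-like cell held 5.30 ± 0.30 on average, and 72.7% ± 9.15 of these cells held 5 or more. The same mean was 1.60 in erythroid-like and 0.852 in allantois-like cells, and at most 0.432 elsewhere. It was lowest in the extraembryonic-endoderm-like cells used as background (0.0873), against 0.151 in neural-plate-like cells. By this mean a background taken from another gate would be higher.

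**Figure D2:**
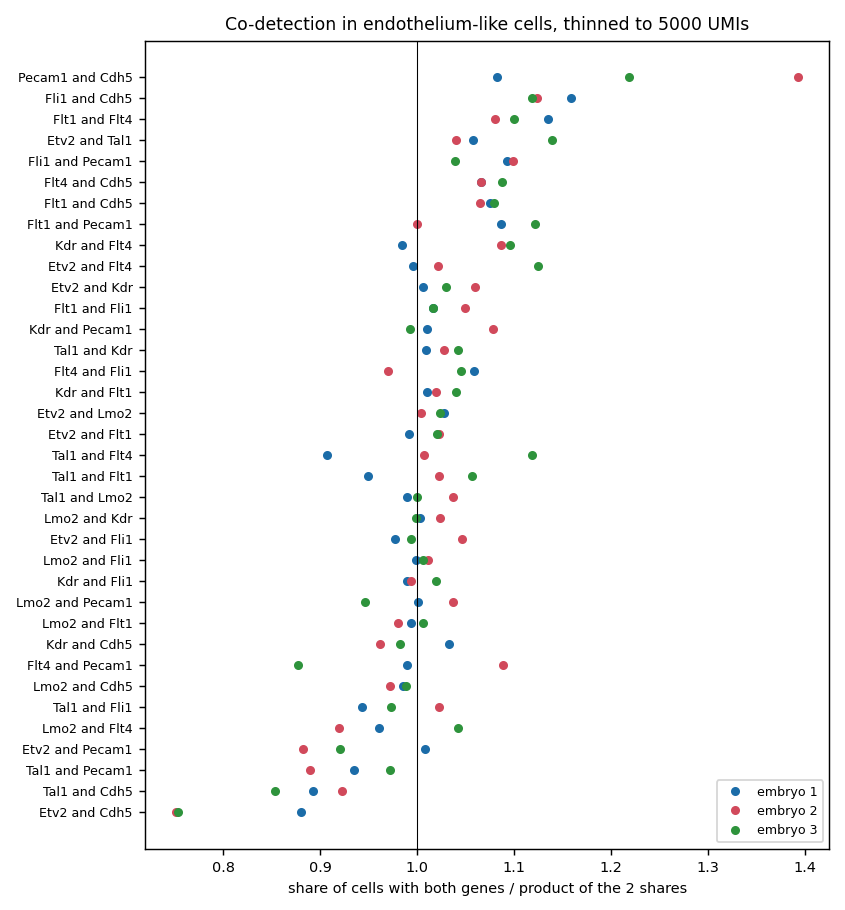
Co-detection of pairs of genes in endothelium-like cells, as the share of cells with both genes divided by the product of their shares, with 1 point per embryo and a line at 1; pairs with Vegfa are left out. Of the pairs drawn, Pecam1 with Cdh5 has the highest mean (1.08 to 1.39) and Etv2 with Cdh5 the lowest (0.752 to 0.880).

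Within the gate most pairs of the 9 genes without Vegfa were found together about as often as the product of their shares. Etv2 and Cdh5 were found together in 15.6% of thinned cells (28, 42 and 54 cells), which was 0.752 to 0.880 of that product in the 3 embryos. Tal1 with Cdh5 gave 0.854 to 0.922 and Tal1 with Pecam1 0.890 to 0.971, all below 1. On the other side lay Cdh5 with Pecam1 (1.08 to 1.39), Fli1 with Cdh5 (1.12 to 1.16), the receptors Flt1 and Flt4 (1.08 to 1.14) and Etv2 with Tal1 (1.04 to 1.14). These ratios are a description, since cells of 1 embryo share a library.

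The genes differed in where else they were found. The share of an embryo's UMIs that came from endothelium-like cells, which made up 3.75% of its cells, was 85.1% for Cdh5, 69.7% for Fli1 and 67.3% for Flt4. It was 50.9% for Kdr, 49.0% for Pecam1, 47.9% for Flt1, 42.1% ± 20.3 for Tal1, 35.3% ± 16.6 for Lmo2 and 34.0% ± 5.24 for Etv2, and Vegfa had 2.05%. The shares of Lmo2 (51.3%, 18.1% and 36.3%) and Tal1 (63.6%, 23.3% and 39.3%) were lowest in embryo 2, which held the most erythroid-like cells. Among all Cdh5-positive cells 68.8% ± 7.10 lay in the endothelium-like gate, against 15.7% ± 1.92 of the 4610 Etv2-positive cells. After thinning these shares were 83.4% ± 8.21 and 29.0% ± 2.91.

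Allantois-like cells, set by Tbx4, Hoxa10, Hoxa11 and Hoxa13, were second for Kdr and Etv2. Kdr had 93.3, 88.6 and 125 CPM there and Etv2 85.5, 177.4 and 223.0, and in each case the 3 values lay below the endothelium-like and above all other gates. The order of embryos turned round for Etv2, with embryo 1 lowest. Against the other gates both rose, Kdr by 3.11 on the log2 scale (SE 0.15) and Etv2 by 3.04 (SE 0.19, edgeR adjusted p = 2.84e-15). After thinning, Kdr was found in 31.99% of allantois-like cells (56.9% before thinning) and Etv2 in 30.8% (61.0%). The pair was found together in 16.8% of these cells, at 1.58 to 1.84 times the product of the shares in the 3 embryos.

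Of the other genes, Fli1 (log2 difference 1.83), Tal1 (1.73) and Vegfa (1.86) were also higher in allantois-like cells, and Flt4 was too (1.05, edgeR adjusted p = 0.0461), but Flt4 lost its call without embryo 1 or embryo 3 and with a stricter gate. Altogether 6 of 10 genes were higher and 0 lower, where 27.2% of genes were called (14.9% higher and 12.3% lower). Flt1, Cdh5 and Pecam1 did not pass there, with Cdh5 at 0 to 0.949 CPM. Lmo2 did not pass either (-0.52, SE 0.22), although with the embryo as a block it was lower (-0.54, edgeR adjusted p = 0.0225).

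The ratio of Etv2 to Kdr differed between the 2 gates. In endothelium-like cells 0.864, 0.736 and 0.732 Etv2 UMIs were counted per Kdr UMI, and in allantois-like cells 0.916, 2.00 and 1.78. The allantois-like ratio was the higher in each embryo, least so in embryo 1. A mean Etv2 level above that of Kdr was not particular to allantois-like cells. It was seen in all gates but the endothelium-like and extraembryonic-endoderm-like ones. Examples are pharyngeal-mesoderm-like (55.6 against 31.0 CPM) and surface-ectoderm-like cells (10.1 against 2.54).

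Other mesoderm carried lower levels of the receptor and its inducer. Pharyngeal-mesoderm-like cells had 31.0 ± 11.9 CPM of Kdr and 55.6 ± 28.8 of Etv2, and both passed against the other gates (log2 differences 1.47 and 1.58), with 2 of 10 genes higher and 1 lower where 10.7% of genes were called (6.0% higher and 4.72% lower). Lateral-plate-like cells had 24.3 ± 2.63 CPM of Kdr, which overlapped the pharyngeal values. There 4 of 10 genes were higher and 2 lower, where 25.0% of genes were called (16.1% higher and 8.9% lower), and the 4 were Flt1 (1.49), Pecam1 (1.43), Vegfa (1.23) and Kdr (0.93). Lmo2 was lower in lateral-plate-like cells (-1.08), as was Tal1 (-0.78), whose call was lost in several alternatives. Etv2 did not pass in the lateral plate (0.50, edgeR adjusted p = 0.0902) but did with the embryo as a block (0.49, 0.0177).

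Flt1 had a second place outside the mesoderm. In surface-ectoderm-like cells, set by genes such as Wnt6, Dlx5 and Grhl3, Flt1 had 79.7, 56.6 and 88.3 CPM, below the endothelium-like cells and above all other gates in each embryo. It was found in 24.5% of the thinned cells (45.8% before thinning), and its log2 difference was 3.56 (SE 0.19, edgeR adjusted p = 7.96e-18). Pecam1 was higher there too, at 7.11 ± 1.41 CPM (log2 difference 1.98, SE 0.27), which overlapped the lateral-plate-like values of 5.18 ± 0.826. The other genes of the set did not rise there: 5 of 10, Kdr, Etv2, Tal1, Lmo2 and Vegfa, were lower, where 24.8% of genes were called (15.4% higher and 9.43% lower).

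Lmo2 had further places outside the vessels and the blood. It was higher in presomitic-mesoderm-like cells (35.2 ± 2.27 CPM, log2 difference 0.90) and in definitive-endoderm-like cells (34.0 ± 8.64 CPM, log2 difference 0.76, edgeR adjusted p = 1.02e-04), and these values overlapped. In presomitic-mesoderm-like cells 1 of 10 genes was higher and 3 lower, where 28.1% were called (16.5% higher and 11.6% lower).

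In the remaining gates few of the genes were higher. In definitive-endoderm-like cells Flt1 (1.07), Vegfa and Lmo2 were higher and 5 of 10 lower (48.5% of genes called, 27.4% higher and 21.1% lower), and in paraxial-mesoderm-like cells Kdr alone was higher (0.47) with 5 lower (24.9% called, 14.7% higher and 10.1% lower). Vegfa alone was higher in extraembryonic-endoderm-like cells, with 7 lower (70.8% called, 37.1% higher and 33.6% lower). None was higher in neural-plate-like (8 lower, where 37.8% of genes were called and 17.3% were lower), caudal-epiblast-like (7 lower, 29.6% and 12.7%), cardiac-mesoderm-like (2 lower, 20.2% and 7.85%) or left-right-organiser-like cells (3 lower, 41.4% and 18.8%).

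Endothelium-like and erythroid-like cells were then compared, since TAL1 and LMO2 act in both lineages. Between them 8 of the 10 genes were higher in endothelium-like cells, 0 were lower and 2 did not pass, where 50.8% of genes were called (27.9% higher and 22.9% lower). Lmo2 stood at 452.4 and 437.0 CPM in the erythroid-like cells of embryos 2 and 3, which overlapped the endothelium-like values, and the log2 difference was -0.24 (SE 0.20, edgeR adjusted p = 0.327). Leaving out embryo 1, which had no erythroid-like cells, gave -0.28 and an edgeR adjusted p of 0.0364. The levels in CPM hardly differed: over all embryos the mean was 451.5 in endothelium-like and 444.7 in erythroid-like cells. The fitted differences include a scaling between sums (TMM) that the CPM lack, and the CPM do not bear out this call. Tal1 stood at 138.9 and 131.2 CPM, below every endothelium-like value, and the log2 difference of 0.28 (SE 0.28) did not pass.

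The receptors, Cdh5 and Etv2 had the largest differences between these lineages. Flt1 was higher in endothelium-like cells by 7.81 on the log2 scale (SE 0.49), Kdr by 6.70 (SE 0.34), Flt4 by 6.05 (SE 0.44), Cdh5 by 6.03 (SE 0.54) and Etv2 by 4.72 (SE 0.43). Fli1 (3.97) and Pecam1 (2.05, SE 0.26) differed less. Erythroid-like cells kept 15.1 and 12.9 CPM of Pecam1, above all gates but the endothelium-like one, and 11.7 and 19.97 CPM of Fli1, which overlapped the allantois-like values of 6.75 to 19.4. Against all other gates erythroid-like cells were higher for Lmo2 (5.14), Tal1 (5.29), Pecam1 (3.32) and Fli1 (2.29) and lower for Kdr, Flt1 and Vegfa, which makes 4 of 10 higher and 3 lower where 62.0% of genes were called (28.2% higher and 33.8% lower). In 45.2% of thinned erythroid-like cells Tal1 and Lmo2 were found together, at 0.985 to 1.07 times the product of their shares.

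Kdr cells were next divided by Etv2 and Cdh5, which are known as an earlier and a later gene of endothelial differentiation. Whether the classes are steps of 1 path was not tested. Cells with at least 1 Kdr UMI numbered 1138, 1033 and 1596. Of these 503, 443 and 764 had Etv2 and no Cdh5 (45.0% ± 2.58), 110, 126 and 204 had both (11.5% ± 1.66), 4, 22 and 50 had Cdh5 and no Etv2 (1.87% ± 1.41), and 41.6% ± 4.89 had neither. The Cdh5-only class was thus the smallest in every embryo, and the one in which embryo 1 was nearly empty. The median Kdr count per cell was 1 UMI in the class with neither and 3 in Etv2-only cells, in every embryo. It was 17, 7 and 7 in cells with both and 9, 5 and 4 in Cdh5-only cells. Much of the class with neither therefore rests on a single Kdr UMI. After thinning the class shares were 46.0%, 6.65%, 4.71% and 42.6%, so both classes with Cdh5 depended on depth, that with Cdh5 alone by the larger ratio. Thinned Cdh5-only cells still held 114.6 CPM of Etv2 in their full counts.

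**Figure D3:**
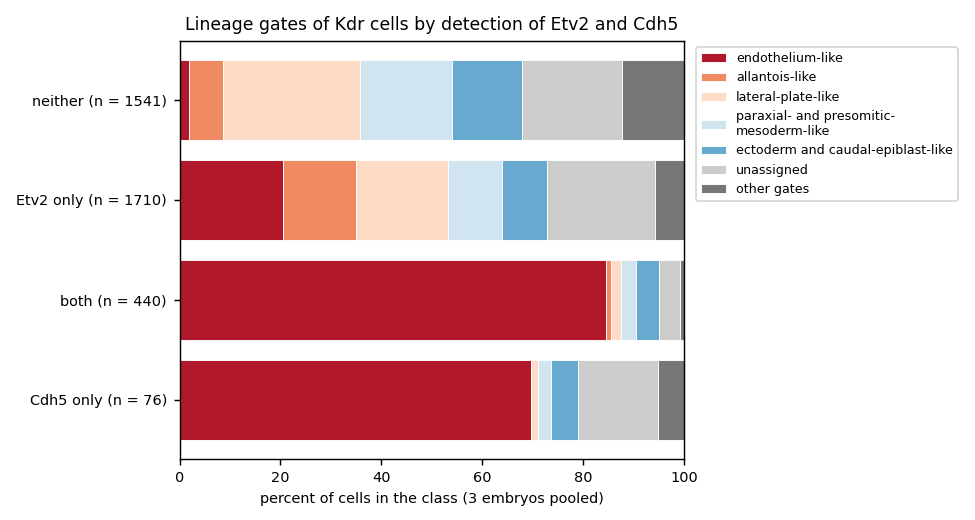
Lineage gates of the Kdr-positive cells of 3 pooled embryos, as the percent of cells in each of 4 classes set by detection of Etv2 and Cdh5. The endothelium-like gate fills most of the classes with Cdh5 and 20.4% of the Etv2-only class at full depth (48.3% after thinning), the rest of which spreads over allantois-like, lateral-plate-like and other gates.

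The classes lay in different gates. Of Etv2-only cells 20.4% ± 3.04 were endothelium-like, 18.2% lateral-plate-like, 14.6% allantois-like, 7.67% paraxial-mesoderm-like and 21.0% in no gate. These shares depended on depth: with cells thinned before the classes were set, 48.3% ± 7.29 of Etv2-only cells were endothelium-like, 12.8% allantois-like and 6.75% lateral-plate-like. At full depth 1 Etv2 UMI was enough for the class, and as a background 4.93% ± 0.675 of extraembryonic-endoderm-like cells had at least that. That gate had the lowest Etv2 level of the 14 (4.31 CPM), against 13.7 in neural-plate-like and 10.1 in surface-ectoderm-like cells. Whether the background is higher in other gates was not tested. Of cells with both, 85.2% ± 5.00 were endothelium-like, as were 71.1% ± 3.53 of Cdh5-only cells and 1.84% of those with neither. A median of 2 endothelial gate markers was found per Etv2-only cell in each embryo, against 7 to 9 in cells with both, and with classes set on thinned cells it was 6, 4 and 4 against 8 to 9. In the other direction, 81.1% ± 3.99 of Cdh5-positive cells had a Kdr UMI, against 46.2% ± 3.098 of Etv2-positive cells.

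Between Etv2-only and Cdh5-only Kdr cells, 5 of the 7 members that did not set the classes were lower in Etv2-only cells and 0 higher, where 7.4% of the 11050 genes tested were called (2.68% higher and 4.72% lower). Pecam1 had 7.19, 11.5 and 9.48 CPM in Etv2-only cells against 49.5, 105.4 and 69.3 in Cdh5-only cells, a log2 difference of -3.13 (SE 0.25, edgeR adjusted p = 9.58e-08). Fli1 had 34.7, 42.4 and 43.0 CPM against 222.7, 151.7 and 143.9 (-1.95, SE 0.16, edgeR adjusted p = 1.14e-07). For both genes the first Cdh5-only value comes from the 4 cells of embryo 1.

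Flt1 and Lmo2 were also lower in Etv2-only cells. Flt1 had 47.1, 46.0 and 44.8 CPM against 123.7, 160.2 and 123.4 (-1.58, SE 0.15, edgeR adjusted p = 7.77e-07), and Lmo2 81.4, 117.8 and 94.999 against 321.7, 364.6 and 242.4 (-1.60, SE 0.17, edgeR adjusted p = 1.89e-06). Flt4 passed (-1.30, SE 0.34, edgeR adjusted p = 0.0205) with 10.3, 10.2 and 11.96 CPM against 0, 42.1 and 20.6, the 0 coming from the 4 cells of embryo 1. Tal1 did not pass (-0.52, SE 0.16, edgeR adjusted p = 0.0589), nor did Vegfa (0.69, SE 0.33, 0.252). With cells thinned to 5000 UMIs, Flt1 (edgeR adjusted p = 0.0711), Lmo2 (0.366) and Flt4 (0.547) lost their calls, and Flt4 lost it also without embryo 2.

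The gates move with this comparison. The 12 endothelial gate markers summed to 228.8 to 368.1 CPM in Etv2-only cells and to 1064 to 1505 CPM in Cdh5-only cells, and all 11 that could be tested were lower in Etv2-only cells. The lateral-plate markers summed to 282.9 to 329.5 CPM against 73.8 to 134.2, with 3 of 5 higher in Etv2-only cells, and the allantois markers to 41.8 to 109.3 CPM against 0 to 4.21. The comparison was therefore repeated inside the endothelium-like gate, on 86, 102 and 162 Etv2-only and 3, 15 and 35 Cdh5-only cells, a choice made after the gates of the classes had been seen.

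Inside the gate 388 of 7415 genes were called (5.23%, with 2.39% higher and 2.85% lower in Etv2-only cells) in place of 818, and 282 genes were called both ways. Of the 7 members, Tal1 was higher in Etv2-only cells and Pecam1 lower, and the other 5 did not pass. Tal1 had 254.9, 226.9 and 207.7 CPM in Etv2-only cells against 132.4, 114.6 and 128.6, a log2 difference of 0.89 (SE 0.17, edgeR adjusted p = 7.73e-04), which is the opposite sign to that among all Kdr cells. Pecam1 kept its direction at -1.33 (SE 0.21, edgeR adjusted p = 6.71e-05). Flt1 (0.10), Lmo2 (0.17), Fli1 (-0.10), Flt4 (0.46) and Vegfa (-0.48) had SEs between 0.13 and 0.49. Markers still moved with the classes inside the gate: 6 of 11 endothelial markers were lower in Etv2-only cells (summed to 1203 to 1725 CPM against 1608 to 2190), both caudal-epiblast markers that could be tested were higher (the list summed to 89.6 to 93.0 CPM against 6.74 to 75.7), and the 1 erythroid marker tested was lower (the list summed to 0.436 to 52.5 CPM against 0 to 360.6). Their part in the result was not tested.

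Etv2-only cells of the gate were also set against the cells of the gate with both genes (100, 103 and 169), which are more numerous. Only 69 of 9288 genes were called (0.743%, with 0.258% higher and 0.484% lower), among them Fli1 (-0.47, SE 0.09, edgeR adjusted p = 0.0430) and Pecam1 (-0.74, SE 0.15, edgeR adjusted p = 0.0409), both lower in Etv2-only cells. Tal1 was not called here (0.34, edgeR adjusted p = 0.260).

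Within the endothelium-like gate, Cdh5 and Tal1 followed the Etv2 count of a cell in opposite directions. Thinned cells were divided into those with 0 (253 cells), 1 to 2 (275) and 3 or more Etv2 UMIs (287). Cdh5 was found in 42.4% ± 11.8, 29.6% ± 6.70 and 15.0% ± 1.92 of them, and the share fell at each step in each of the 3 embryos. Tal1 was found in 50.6% ± 4.72, 59.6% ± 9.08 and 75.6% ± 1.37, and was highest in the third bin in each embryo, although in embryo 2 the middle bin was below the first. From the first to the third bin Kdr went from 83.7% to 94.8% and Lmo2 from 81.4% to 89.1%, both higher in 3 of 3 embryos. The means of Pecam1 were 31.2% and 23.4%, of Flt1 65.4% and 64.8%, of Fli1 69.8% and 67.4% and of Flt4 26.5% and 31.4%, and for these 4 genes the embryos did not all move the same way. Fli1 went down in embryos 1 and 3 and up in embryo 2, Flt4 up in embryos 2 and 3 and down in embryo 1, and Pecam1 down in embryos 2 and 3 and level in embryo 1. These bins are a description over cells and carry no test.

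**Figure D4:**
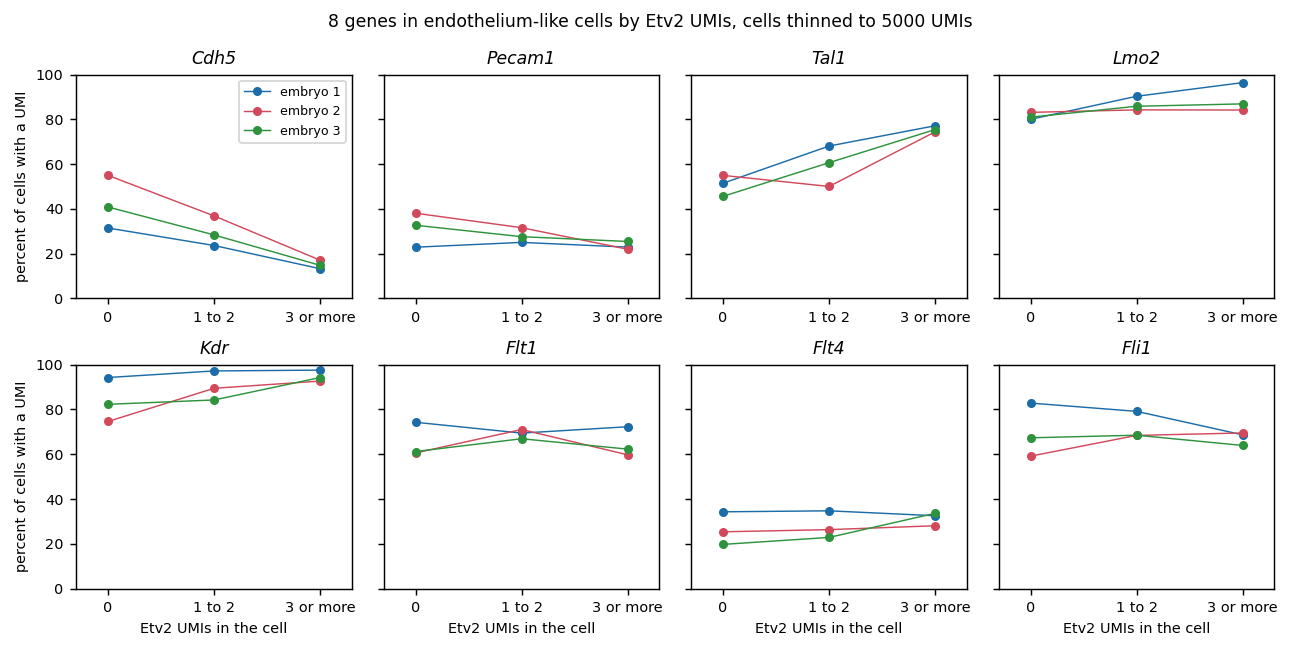
Percent of endothelium-like cells with a UMI of each of 8 genes, by the Etv2 UMIs of the cell after thinning to 5000 UMIs, with 1 line per embryo. Cdh5 falls from a mean of 42.4% to 15.0% and Tal1 rises from 50.6% to 75.6%, and the lines of Flt1, Flt4, Fli1 and Pecam1 do not all run the same way in the 3 embryos.

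The last question was where the ligand Vegfa was made, and the order of levels was unlike that of its receptors. Vegfa had 61.9, 51.3 and 49.3 CPM in definitive-endoderm-like cells and 54.0, 51.3 and 48.1 in allantois-like cells, which overlapped. Next came lateral-plate-like cells with 30.8, 32.1 and 35.4 CPM and extraembryonic-endoderm-like cells with 35.4, 27.5 and 31.0, which also overlapped. These 4 gates stood above all others in every embryo. Their log2 differences from the remaining gates were 1.96 (SE 0.08), 1.86 (SE 0.10), 1.23 (SE 0.08) and 1.37 (SE 0.08), and the largest edgeR adjusted p was 1.11e-14.

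From cardiac-mesoderm-like (16.2 ± 1.03 CPM) down to caudal-epiblast-like cells (7.31 CPM) each gate overlapped its neighbour in the order, and erythroid-like cells were lowest (4.31 CPM, log2 difference -1.70). Endothelium-like cells stood in this stretch at 10.5, 9.73 and 13.8 CPM, and Vegfa was found in 5.6% of them after thinning (18.1% before). Their log2 difference of -0.37 (SE 0.12, edgeR adjusted p = 0.0134) lost its call without embryo 1 (-0.23, 0.204), without embryo 2 (-0.32, 0.124) and without the cells of highest doublet score (-0.30, 0.0578). Cardiac-mesoderm-like (0.18, edgeR adjusted p = 0.372) and pharyngeal-mesoderm-like cells (0.03) did not pass.

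**Figure D5:**
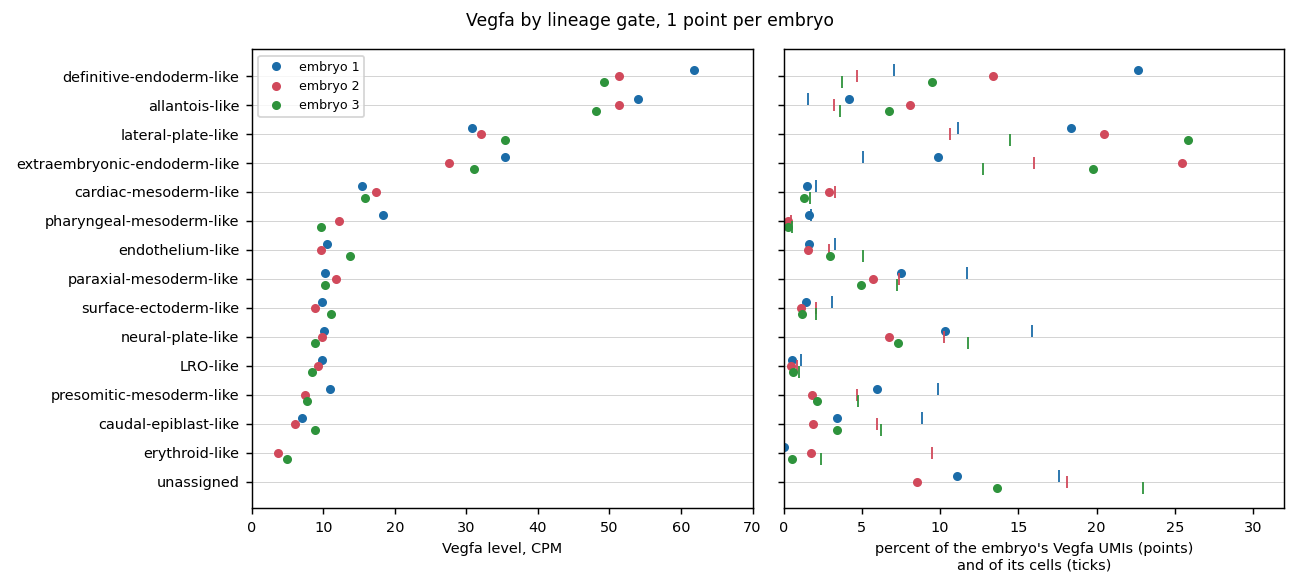
Left, Vegfa level in CPM by lineage gate with 1 point per embryo. Right, percent of each embryo's Vegfa UMIs from a gate (points) beside the percent of its cells in that gate (ticks), where 4 gates, definitive-endoderm-like, allantois-like, lateral-plate-like and extraembryonic-endoderm-like, give more UMIs than their share of cells.

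By amount, lateral-plate-like cells gave 21.6% ± 3.83 of an embryo's Vegfa UMIs from 12.1% of its cells, extraembryonic-endoderm-like cells 18.4% ± 7.89 from 11.3% and definitive-endoderm-like cells 15.2% ± 6.77 from 5.15%. The order of these 3 differed between embryos: definitive-endoderm-like cells led in embryo 1 (22.6%), extraembryonic-endoderm-like in embryo 2 (25.4%) and lateral-plate-like in embryo 3 (25.8%). Such shares also depend on the number of cells in a gate. Thinned extraembryonic-endoderm-like cells numbered 289, 1266 and 992 in embryos 1, 2 and 3. Their share led in embryo 2, where their Vegfa level was lowest (27.5 CPM). Allantois-like cells gave 6.33% from 2.78% of cells and endothelium-like cells 2.05% ± 0.79 from 3.75%. Over the whole embryo the Vegfa level was 18.0, 18.1 and 18.2 CPM, which is closer between embryos than that of Lmo2 (26.1, 70.2 and 46.7 CPM).

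Vegfa and Kdr were both higher than the mean of the other gates in allantois-like and in lateral-plate-like cells. The lateral-plate-like level of Kdr (24.3 CPM) was still far below the endothelium-like one (525.5 CPM). A gate gives no position in the embryo, so whether ligand and receptor meet was not tested. In thinned allantois-like cells Vegfa was found in 19.0% ± 3.97 of Kdr-positive cells (5 of 26, 18 of 79 and 15 of 101) and in 24.9% ± 2.77 of cells without Kdr. It was lower in Kdr-positive cells in 3 of 3 embryos, on these small counts and without a test. In lateral-plate-like cells the shares were 17.1% ± 3.17 and 14.3% ± 2.44, and the order of the 2 differed between embryos.

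The wider pathway was read from 4 lists of other genes, none of them gate markers, against 24.3% of all genes higher and 22.0% lower in endothelium-like cells. Of the VEGF family and its coreceptors, 3 of 5 were higher in endothelium-like cells than in the other gates and 0 lower (median log2 difference 1.67 against -0.04 over all genes): the coreceptors Nrp2 (2.40) and Nrp1 (1.73), and the FLT4 ligand Vegfc (1.67). Of the progenitor transcription factors, 13 of 14 were higher (median 3.99). The largest differences were those of the ETS factor Erg (8.01), Sox7 (6.67), the TAL1 relative Lyl1 (6.48), the ETS factor Elk3 (5.10) and Gfi1b (4.91). Gfi1b stood at only 8.72 ± 7.07 CPM in endothelium-like cells. It was lower there than in erythroid-like cells (-3.00), as were Runx1 (-2.55) and Ldb1 (-0.49). Of the vessel receptors and junction genes, 15 of 19 tested were higher and 1 lower (median 2.92), with Cd34 (6.38), the Notch ligand Dll4 (6.34), Cd93 (6.13), the TGF-beta coreceptor Eng (5.70) and Robo4 (4.86) at the top, and the TEK ligand Angpt1 lower (-2.48, SE 0.65). Robo4 stood at only 1.92 ± 0.298 CPM in endothelium-like cells, near the floor. Of the hypoxia genes that regulate or accompany Vegfa, 2 of 8 were higher, the HIF hydroxylase Egln3 (2.07) and Hif1a (0.37), and 3 lower, the glucose transporter Slc2a1 (-0.86), Bnip3 (-0.68) and Vhl (-0.45).

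Between endothelium-like and erythroid-like cells, 4 of 5 genes of the VEGF family list were higher in the former and 1 lower, 11 of 14 transcription factors were higher and 3 lower, 15 of 19 vessel genes were higher and 1 lower, and 3 of 8 hypoxia genes were higher and 2 lower, against 27.9% of all genes higher and 22.9% lower. Between Etv2-only and Cdh5-only Kdr cells, 9 of 14 transcription factors were lower in Etv2-only cells and 0 higher, and 8 of 17 vessel genes lower and 0 higher, against 7.4% called over all genes. Among those with the same sign in every embryo the lowest were Cd34 (-4.18), Cd93 (-3.93), the blood stem cell factor Runx1 (-3.68), the ETS factor Ets1 (-2.55) and the sphingosine phosphate receptor S1pr1 (-2.31). Cd93 and S1pr1 each had 12.4 CPM in the Cdh5-only cells of embryo 1, so their sign in that embryo rests on few UMIs. Gfi1b (-4.30), Itga2b (-3.31), Erg (-3.15) and Lyl1 (-3.07) passed as well. They lacked the same sign in every embryo, with 0 CPM in the Cdh5-only cells of embryo 1. The VEGF family ligand Pgf was higher (3.20, SE 0.89), with 9.32, 19.5 and 10.4 CPM against 0, 0 and 2.16 in Cdh5-only cells, near the floor. Inside the endothelium-like gate Pgf was not tested and had 2.18, 4.04 and 1.76 CPM in Etv2-only cells against 0. Of 7 hypoxia genes Slc2a1 was higher (0.58) and Egln3 lower (-1.90).

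Inside the endothelium-like gate 1 of 12 transcription factors was higher in Etv2-only cells and 4 lower, and 4 of 14 vessel genes were lower and 0 higher, against 5.23% called over all genes. Runx1 had 2.6, 6.7 and 22.4 CPM in Etv2-only cells against 75.7, 111.2 and 101.2 in Cdh5-only cells (-3.22, SE 0.40, edgeR adjusted p = 1.45e-06), and Cd34 (-2.26), Cd93 (-2.37), Ets1 (-1.44) and Egln3 (-1.76) were lower as well. The homeobox factor Hhex was the 1 that was higher, with 150.2, 170.4 and 182.7 CPM against 56.8, 84.2 and 97.0 (0.91, SE 0.19, edgeR adjusted p = 2.50e-03). Among all Kdr cells Hhex was lower in Etv2-only cells (-0.70, edgeR adjusted p = 0.0434), a call that was lost with the embryo as a block (-0.60, 0.0546).

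Over all genes, the named differences between the classes are the 5 largest each way with the same sign in every embryo. Hoxa7, Twist2, Ptges, Evx1os and Fhdc1 had 0 UMIs in the Cdh5-only cells of all embryos. They passed the filter on low counts through Etv2-only cells alone, and any UMI there gave them the same sign. With UMIs pooled over embryos and a floor of 3 counts for that group, Hoxa7 was 10.5-fold, Twist2 5.03-fold and Fhdc1 3.05-fold higher in Etv2-only cells. These pooled ratios leave out the spread between embryos. The Cdh5-only sum of embryo 1 held 80818 UMIs, so a 0 there says little about genes at such levels. On the Cdh5-only side lay Igf1 (-5.30, SE 0.40), Ctla2a (-5.17, SE 0.45), Oit3 (-4.96), Smtnl1 (-4.44) and Sla2 (-4.35). Igf1 and Ctla2a each had 12.4 CPM in the Cdh5-only cells of embryo 1, so their sign in that embryo rests on few UMIs. Of these 5, Igf1 (-3.54), Ctla2a (-3.04), Oit3 (-2.79) and Sla2 (-2.53) were lower in Etv2-only cells inside the endothelium-like gate too. Hoxa7, Twist2, Ptges, Evx1os and Fhdc1 were not tested inside the gate. Each had a lower level in the gate's Etv2-only cells than in all Etv2-only Kdr cells, in every embryo. Hoxa7 had 3.06, 6.06 and 7.48 CPM there against 14.7, 46.6 and 15.7.

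The genes whose level was most like that of a member over the 41 sums of embryo and gate were sought with Pearson's r of log2(CPM + 1), leaving out gate markers and members. For Etv2 they were Swap70 (r = 0.859), Fev (0.851) and Lipt2 (0.844), and among the members Kdr was closer (0.965). For Cdh5 they were Samsn1 (0.981), Gimap4 (0.980) and Ctla2a (0.977), all above Flt4 (0.922). For Vegfa they were Gfpt2 (0.876), Amot (0.869) and Peg10 (0.860), while the r of Vegfa with the other 9 genes lay between -0.24 and 0.12. The sums of 1 embryo share a library, and these r describe 14 gates in 3 embryos without a test.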

How the data were processed

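Cells of 3 wild-type embryos were captured on a Chromium instrument, and the authors aligned the reads with Cell Ranger (version 3.1.0, which uses STAR) to mm10 with EGFP added. The deposited values are raw UMI counts per gene for every barcode called a cell, without normalization. Of 23533 barcodes, the study's limits removed those with more than 8500, 7500 and 8500 genes by embryo, fewer than 1500 genes, or a mitochondrial share above 10%. Barcodes with a share below 0.5% (334, 160 and 79) were also left out here, since the study dropped clusters of low mitochondrial content. The 21595 kept cells held 191843539, 144790573 and 165506028 UMIs. Lineage gates needed a number of markers and a summed level per 10000 UMIs, both set from the markers' distributions after the data were seen. Of the cells, 4291 passed several gates and went to the one whose level was highest relative to its limit.

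UMIs were summed per embryo and gate (41 sums of at least 10 cells) and tested with edgeR (version 4.0.16 under R 4.3.3) by the quasi-likelihood test after TMM scaling and the filterByExpr filter; a call needed a Benjamini-Hochberg adjusted p below 0.05 over all genes tested. SEs were derived from the test, as the absolute fitted log2 difference divided by the square root of its F statistic. The gate fit had no embryo block and shared 1 estimate of each gene's spread over the 41 sums of all gates. Its p-values and SEs therefore draw on more than the 3 sums of a gate and treat sums of 1 embryo as independent. The Kdr class fits used 1 sum per class and embryo. The sums of 1 embryo come from the same animal: their deviations from the gate means correlated between 0.0733 and 0.427 over pairs of gates (median 0.217) and between 0.112 and 0.173 for the Kdr classes, across genes. Alternatives were a fit with the embryo as a block, DESeq2 (version 1.42.0), no filter on low counts, each embryo left out, the top 6% of Scrublet doublet scores left out (scanpy version 1.11.5), low-mitochondrial cells kept, a stricter gate, 2 UMIs for a class, and thinned cells. Cells that pass exactly 1 gate, sums of at least 10 cells for the classes, the classes inside the gate and the comparison with cells holding both genes were added after the data were seen. Doublets stay in the main values. The scripts were tested on simulated counts.

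The 10 genes and the lists were chosen with earlier results of these data known. Of 47 other pathway genes, those that passed were named up to the 5 largest each way of a list with the same sign in every embryo, and members were always named; single genes named inside the gate were taken from these lists after their values were seen. A share with ± is a mean over embryos with its SD, and a share without ± is given with no measure of its spread.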

Additional observations from a re-analysis of the deposited data

How the results depend on the processing

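In the comparison of endothelium-like cells with the other gates the 9 genes that were higher kept their direction and call in all 10 alternatives, and Vegfa kept its direction. Vegfa lost its call there when an embryo was left out (log2 differences between -0.55 and -0.23, with the call lost without embryos 1 and 2) and without the top doublet scores (-0.30), and in left-right-organiser-like cells with cells that pass exactly 1 gate (-0.58). The number of genes called between endothelium-like and erythroid-like cells was 7212, and 4796 to 6834 with an embryo left out, the lowest without embryo 2. Between Etv2-only and Cdh5-only Kdr cells it was 818, and 515 to 726 with an embryo left out (lowest without embryo 3), 310 with thinned cells, 388 inside the endothelium-like gate and 69 against cells with both genes; with no filter on low counts it was 1192, and with sums of at least 10 cells, which leave out the 4 cells of embryo 1, 865. Of the Kdr cells, 6.65% had both genes and 4.71% Cdh5 alone after thinning. Inside the gate 3.03% had neither, 47.2% both and 5.74% Cdh5 alone, and inside the gate after thinning 15.2% neither, 57.0% Etv2 alone, 16.3% both and 11.5% Cdh5 alone.

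Among genes called in the comparison or in its alternative, signs turned inside the gate for Tal1 (0.89), Flt1 (0.10), Flt4 (0.46), Lmo2 (0.17), Aplnr (0.20), Eng (0.19), Gata2 (0.18) and Hhex (0.91), against cells with both genes for Lmo2 (0.066), Gata2 (0.51) and Hhex (0.57), with thinned cells for Hhex (0.41), and for Fli1 in neural-plate-like cells when an embryo was left out (-1.19 to 0.036, above 0 without embryo 1). The cause was not tested. With the embryo as a block the count of calls was 949 for the Kdr classes (779 shared with the 818), 7509 for endothelium-like cells and 7947 against erythroid-like cells. The block moved Etv2 past the threshold in left-right-organiser-like cells (-0.99, edgeR adjusted p = 0.0435), and the other member calls it changed stand beside their results. Over single genes and gates 1915 alternative values kept direction and call, 172 lost it, 44 gained it and 13 turned sign.

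Depth limits the rarer genes: Cdh5 is found in 2.90% and Flt4 in 4.37% of all cells, and outside the endothelium-like and erythroid-like gates Cdh5 reaches at most 0.949 CPM in an embryo, which rests on few UMIs. The Cdh5-only class of embryo 1 has 4 cells and 80818 UMIs, so its values rest on few UMIs. That sum still counts as a full replicate in the class tests and means. The alternatives without embryo 1 and with sums of at least 10 cells leave it out. Erythroid-like cells come from embryos 2 and 3 alone.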

Other observations

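The gates left 4260 cells unassigned, and these cells held 21.7% ± 2.40 of the Etv2 UMIs and 14.7% ± 3.23 of the Kdr UMIs of an embryo from 19.6% of its cells. They held 11.1% of the Vegfa UMIs. An unassigned cell held 0.432 of the 9 genes without Vegfa on average after thinning, and 0.887% of these cells held 5 or more.

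Over whole embryos the Tal1 level was 10.1, 22.4 and 18.0 CPM in embryos 1, 2 and 3, in the order of their erythroid-like cells (0, 756 and 186). With 3 embryos no relation was tested.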
